A study of Rattus norvegicus with 11 samples.

Results

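Guanine deaminase (Gda) was examined together with 8 other genes of purine and adenosine metabolism, namely Xdh, Pnp, Ada, Hprt1, Nt5e, Entpd1, Ampd3 and Adora2a, in peripheral white blood cells (WBCs) of rats with collagen-induced arthritis (CIA). The 9 genes were taken by symbol from the 32623 genes of the deposited table, and each stands there on 1 row with reads in all 11 samples. Gda was chosen by its FPKM in Nampt+ against Nampt++ samples, 2 stages of CIA in which it was already known to differ in these data, so its change is described here and not tested. The other genes were chosen for their place in the pathway.

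Purines leave the cell's nucleotide pool by stepwise loss of phosphate, amino group and sugar. AMP deaminases such as Ampd3 and adenosine deaminase Ada remove the amino group of adenine nucleotides and adenosine, purine nucleoside phosphorylase Pnp releases the free bases, Gda turns guanine into xanthine, and xanthine dehydrogenase Xdh oxidises hypoxanthine and xanthine to uric acid. Hprt1 competes with this loss by joining hypoxanthine and guanine back to a phosphoribosyl group. Outside the cell, Entpd1 (CD39) cuts ATP and ADP down to AMP, Nt5e (CD73) turns AMP into adenosine, and the adenosine receptor Adora2a carries that signal into leukocytes, where it is known for restraining inflammatory responses.

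All rats were male Wistar rats, 7 weeks of age at the start. In the CIA rats arthritis was raised by bovine type II collagen in incomplete Freund's adjuvant (IFA-CII), with a boost on day 7. The same 4 CIA rats gave a Nampt++ sample on about day 8 and a Nampt+ sample on about day 14, and 3 healthy controls without CIA gave the normal samples. The authors set Nampt status by their own PCR of Nampt, the gene of the rate-limiting enzyme of NAD salvage, so stage and Nampt status cannot be told apart in these groups. Bulk WBCs were measured, in which fewer cells of a type and less RNA per cell cannot be told apart.

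Each gene has a count of reads and an FPKM, in which fragments are scaled to the size of the library and of the transcript, so that genes can be compared. Total counts ranged from 65340027 to 85819418 per sample. Although red cells had been lysed, the share of reads on 11 haemoglobin genes was 6.84 to 37.3% in Nampt++, 14.8 to 42.8% in Nampt+ and 16.2 to 30.9% in the normal group. By RNA-seq, Nampt went against its label in 2 rats, with 10.1 FPKM in the Nampt++ and 14.3 in the Nampt+ sample of rat 2, and 30.6 and 36.9 in those of rat 4. One protocol in the labels speaks of retinas, but of 8 retina genes 3 were at 0 in all samples and none exceeded 1.86 FPKM.

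The 9 genes are spread over the genome. Positions are those of the deposited table, whose build is not given in the sources used here. Gda (ENSRNOG00000018282) is listed on the minus strand of chromosome 1 from 238982392 to 239057732. Entpd1 lies on the same chromosome from 259739955 to 259819494 and Ampd3 from 175586097 to 175630467. Xdh is on chromosome 6, Pnp on 15, Ada on 3, Hprt1 on X, Nt5e on 8 from 95968652 to 96012696, and Adora2a on 20. The deposited annotation places 8 of the 9 in the KEGG pathway of purine metabolism, all except Adora2a, and Gda and Ada also carry the GO term of zinc ion binding.

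Promoter sequence was at hand for 7 of the 9 genes, from RefSeq on GRCr8, as 250 bases before and 50 after the start of each gene. The promoters of Gda and Nt5e are shown because these 2 genes passed the thresholds below. That of Gda is chr1:228408852-228409151 on the minus strand and that of Nt5e chr8:98150675-98150974 on the plus strand. Each is written 5′ to 3′, and capitals mark matches to CCAAT or GGGCGG on either strand.
Gda: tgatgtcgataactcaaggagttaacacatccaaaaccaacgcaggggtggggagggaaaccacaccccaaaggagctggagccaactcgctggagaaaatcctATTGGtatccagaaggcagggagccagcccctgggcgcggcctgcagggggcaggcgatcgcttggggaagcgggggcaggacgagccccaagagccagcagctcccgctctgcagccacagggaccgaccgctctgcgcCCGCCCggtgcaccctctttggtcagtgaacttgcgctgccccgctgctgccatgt
Nt5e: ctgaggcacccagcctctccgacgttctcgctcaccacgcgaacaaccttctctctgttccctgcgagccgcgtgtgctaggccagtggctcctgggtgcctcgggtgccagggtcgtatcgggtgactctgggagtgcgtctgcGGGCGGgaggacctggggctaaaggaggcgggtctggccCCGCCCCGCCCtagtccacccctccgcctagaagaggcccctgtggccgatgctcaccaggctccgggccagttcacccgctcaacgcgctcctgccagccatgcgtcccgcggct
In Gda, a CCAAT match on the opposite strand begins at -146 from the start and a GGGCGG match at -6. Nt5e held 3 GGGCGG matches, at -105, -66 and -61, the last 2 of which overlap by 1 base, and no CCAAT. Of all 27457 promoters of this length, 37.7% held CCAAT and 34.9% GGGCGG. The TATA box TATAAA was in neither of the 2 and in 14.3% of all promoters. The hypoxia element core ACGTG was in neither and in 19.7% of all. The AP-1 motif TGANTCA was likewise in neither and in 7.33%, and the cAMP element TGACGTCA in 1.91%. These are matches of letters and not measured sites.

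Pnp and Xdh were the most abundant of the 9, and Nt5e the least. Averaged over all samples, Pnp reached 78.4 FPKM and ranked 874 of 11242 genes with a mean of at least 1 FPKM. Xdh followed at 65.7 FPKM, while Gda stood at 26.9 FPKM and rank 2276, and Nt5e at 3.67 FPKM and rank 8082. When values were compared across the samples of a group, order could be told beyond their spread at few places. In normal samples Pnp was above Xdh and Xdh above Adora2a without overlap, and in Nampt+ samples Xdh was above Ampd3, the next gene by mean. Nt5e was below all others without overlap in Nampt+ and normal samples, whereas in Nampt++ the 11.2 FPKM of rat 1 lay above the lowest values of Ampd3 and Entpd1. It stayed below Ada, its neighbour by mean there, whose lowest Nampt++ value was 12.3 FPKM. Within each of the 11 samples Nt5e was the lowest of the 9 genes. Other neighbours in the order of means overlapped.

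Gda, the gene chosen on this contrast, was higher in Nampt++ than in Nampt+ samples of 3 rats. In Nampt++ samples it lay at 43.2, 13.3, 47.3 and 61.1 FPKM for rats 1 to 4, in Nampt+ samples of the same rats at 13.97, 14.2, 23.6 and 23.1, and in normal samples at 12.96, 33.1 and 10.4. Rats 1, 3 and 4 were thus high at Nampt++ and low at Nampt+, whereas rat 2 was low at both, and a normal sample lay above all Nampt+ samples. The Nampt+ to Nampt++ ratio within a rat was 0.323, 1.06, 0.499 and 0.378.

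Group means of Gda were 41.2 ± 20.1 FPKM in Nampt++ (SD, n = 4), 18.7 ± 5.35 in Nampt+ (n = 4) and 18.8 ± 12.4 in normal samples (n = 3). Thresholds were a ratio of mean FPKM over 2 or under 0.5 together with an unadjusted p under 0.05 in edgeR's quasi-likelihood test, which 0.642% of the 11219 genes tested passed in Nampt+ against Nampt++ (0.330% lower). For Gda the ratio was 0.454 and the log2 fold change -1.01 (SE 0.36). It meets the thresholds because it was chosen on them, and this is given as a description. It did not meet them with the rat as a replicate block (log2 fold change -0.93), with upper quartile scaling (-0.97), with haemoglobin genes left out (-1.03) or with the 3 groups fitted at once (-1.01). Nor did it without Nampt++ replicate 3 (-0.90) or 4 (-0.86) or Nampt+ replicate 1 (-0.86).

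Against normal samples Gda is also given as a description, since these comparisons use the samples in which it was picked. The log2 fold change was 0.88 (SE 0.62) for Nampt++ and -0.14 (SE 0.52) for Nampt+, and neither passed. Both values turned on normal replicate 2. Without it the log2 fold change was 1.88 for Nampt++, past the thresholds that 462 genes in all then passed against 77 with it, and 0.86 for Nampt+, which did not pass.

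**Figure D1:**
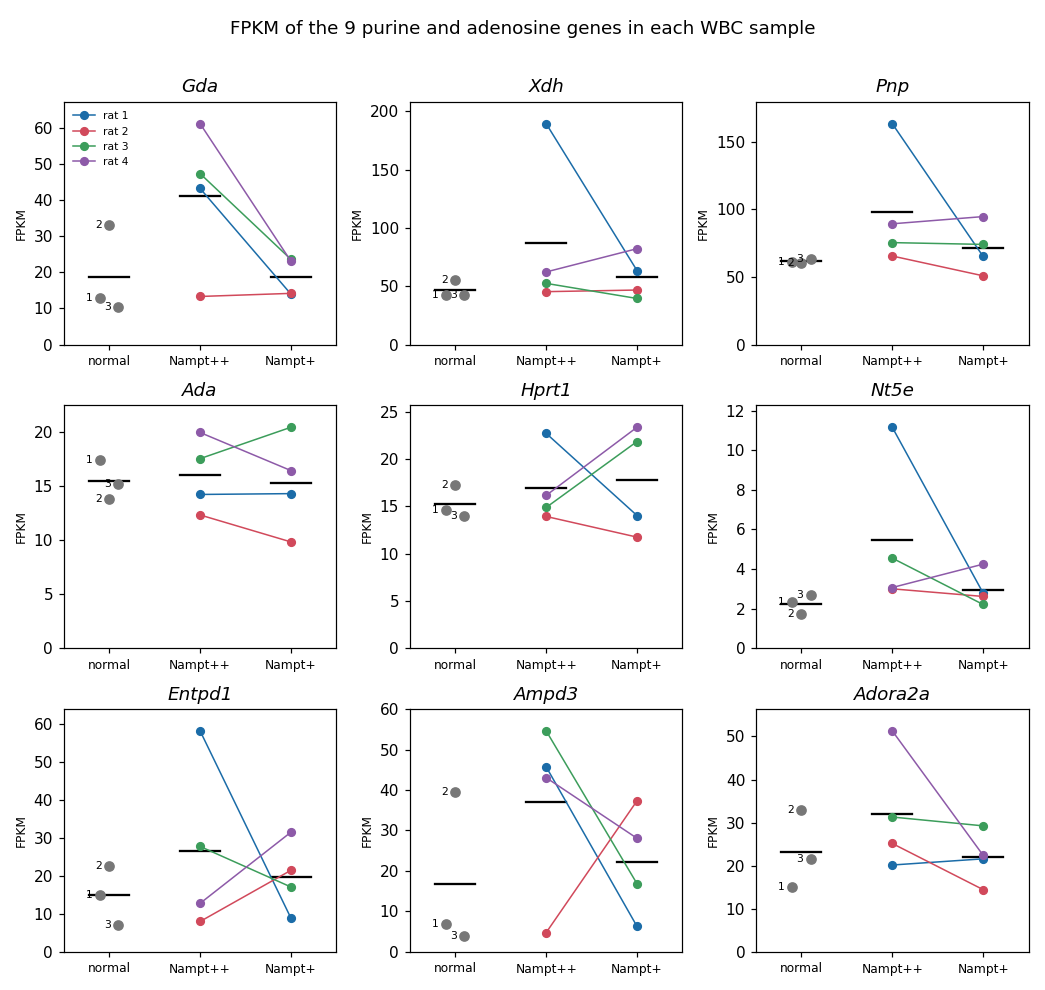
FPKM of the 9 genes (vertical axes, linear, from 0) in normal, Nampt++ and Nampt+ samples, with each CIA rat joined by a line, normal samples numbered, and black bars at group means. Gda is lower at Nampt+ in rats 1, 3 and 4 and differs little between both samples of rat 2, and for Xdh, Pnp, Nt5e and Entpd1 the highest point is the Nampt++ sample of rat 1.

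Xdh, which makes the uric acid, did not pass in any comparison. Rat 1 stood apart at Nampt++ with 189 FPKM, against 45.4, 52.5 and 62.3 in rats 2 to 4. In Nampt+ the values were 63.5, 46.8, 39.6 and 82.3 FPKM, and in normal samples 42.5, 55.4 and 42.8. Aside from that sample the groups shared one range. From Nampt++ to Nampt+, Xdh was lower in 2 rats and higher in 2, with a log2 fold change of -0.44 (SE 0.46) for Nampt+ against Nampt++, which turned to 0.21 without Nampt++ replicate 1. For Nampt++ against normal it was 0.76 (SE 0.52), and 0.11 without that sample. Two-sided exact permutation of log2(FPKM + 1) gave p = 0.629 and 0.286. For Nampt+ against normal the log2 fold change was 0.31 (SE 0.37), with an exact permutation p of 0.429.

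Pnp, which splits inosine and guanosine, was one of 2 genes whose Nampt++ and normal samples did not overlap. Its values were 163, 65.4, 75.3 and 89.2 FPKM in Nampt++ and 60.8, 60.4 and 63.4 in normal samples, so the lowest Nampt++ sample lay just above the highest normal one. Groups without overlap were found for 1.10% of the 11219 genes tested in this comparison, 0.633% with Nampt++ higher. The log2 fold change was 0.59 (SE 0.31), under the threshold of fold, and the exact permutation p was 0.0857, where 0.0286 is the smallest it can give. Without Nampt++ replicate 1 the log2 fold change was 0.28. In Nampt+ samples Pnp was at 65.2, 50.8, 74.0 and 94.6 FPKM, which overlap with both other groups. It was lower than at Nampt++ in 3 of 4 rats, by ratios of 0.399, 0.777 and 0.982, and higher in rat 4 by 1.06 (log2 fold change -0.37, SE 0.27, and -0.057 without Nampt++ replicate 1).

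Ada, which deaminates adenosine to inosine, had its 3 group means within 1 FPKM of each other. It lay at 14.2, 12.3, 17.5 and 19.9 FPKM in Nampt++, at 14.3, 9.83, 20.4 and 16.4 in Nampt+, and at 17.4, 13.8 and 15.2 in normal samples. All 3 groups overlapped, and the fitted log2 fold changes were -0.01 (SE 0.16), -0.01 (SE 0.21) and -0.03 (SE 0.20), in the order Nampt+ against Nampt++, Nampt++ against normal and Nampt+ against normal. Adenosine kinase (Adk), which instead phosphorylates adenosine, had means of 13.3, 13.9 and 15.7 FPKM in Nampt++, Nampt+ and normal samples. The Ada to Adk ratio was 1.05, 0.987, 1.48 and 1.29 in Nampt++, 0.698, 0.979, 1.63 and 1.29 in Nampt+, and 1.14, 1.36 and 0.701 in normal samples. The mean log2 ratio differed by -0.11 in Nampt+ against Nampt++ (exact permutation p = 0.743), by 0.20 in Nampt++ against normal (p = 0.6) and by 0.09 in Nampt+ against normal (exact permutation p = 0.829).

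Ampd3, the AMP deaminase known from red cells, varied more between samples of one group than between groups. At Nampt++ it was at 45.7, 4.75, 54.6 and 43.1 FPKM, at Nampt+ at 6.29, 37.3, 16.8 and 28.1, and in normal samples at 6.88, 39.6 and 3.93. Rat 2 went the other way from the rest, with a Nampt+ to Nampt++ ratio of 7.87, while rats 1, 3 and 4 had 0.138, 0.308 and 0.652. The log2 fold change was -0.37 (SE 0.79) for Nampt+ against Nampt++, 0.79 (SE 1.03) for Nampt++ against normal and 0.42 (SE 1.05) for Nampt+ against normal, with exact permutation p = 0.543, 0.286 and 0.486. Without normal replicate 2 the last 2 were 2.81 and 2.44 and passed the thresholds. In Nampt++ against normal 462 genes in all then passed, against 77 with that sample. In Nampt+ against normal 136 passed, against 56 with it.

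Hprt1, the salvage enzyme, showed no difference beyond the spread of the samples. Its values were 22.7, 13.9, 14.9 and 16.2 FPKM in Nampt++, 14.03, 11.7, 21.9 and 23.4 in Nampt+, and 14.6, 17.3 and 13.97 in normal samples. Rats 1 and 2 were lower at Nampt+ and rats 3 and 4 higher. The log2 fold changes were 0.13 (SE 0.20) for Nampt+ against Nampt++, 0.05 (SE 0.28) for Nampt++ and 0.17 (SE 0.29) for Nampt+ against normal. A second row, LOC103689983, is annotated as a copy of Hprt1, and how reads that match both were counted is not given in the sources used here. It was at 17.9, 11.1, 13.8 and 19.4 FPKM in Nampt++, 11.8, 9.18, 11.3 and 9.87 in Nampt+, and had a mean of 9.85 in normal samples. The copy was lower at Nampt+ in all 4 rats, though the groups overlapped. Summed with the copy, Hprt1 differed by -0.19 on the log2(FPKM + 1) scale in Nampt+ against Nampt++ and by 0.33 in Nampt++ against normal (exact permutation p = 0.371 and 0.2).

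Guanine can be deaminated by Gda or salvaged by Hprt1, and the ratio of both transcripts is given as a description, since Gda was chosen. For rats 1 to 4 it was 1.902, 0.956, 3.18 and 3.78 at Nampt++ and 0.996, 1.21, 1.08 and 0.988 at Nampt+, and 0.889, 1.91 and 0.745 in normal samples. In rats 1, 3 and 4 the Nampt++ samples thus lay above all Nampt+ samples, and that of rat 2 below them. Mean log2 ratios were 1.11 in Nampt++, 0.09 in Nampt+ and 0.11 in normal samples. With the copy added to Hprt1 they were 0.17, -0.62 and -0.61.

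**Figure D2:**
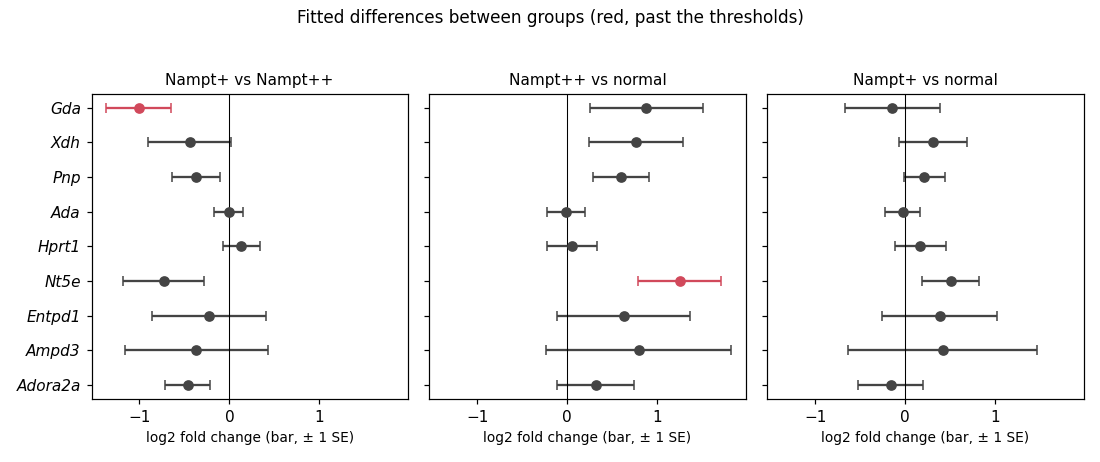
Log2 fold changes of the 9 genes (horizontal axis; bars, 1 SE) fitted by edgeR in each of the 3 comparisons, with genes past the thresholds in red. Gda at -1.01 in Nampt+ against Nampt++ and Nt5e at 1.25 in Nampt++ against normal are the 2 red points.

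Of the extracellular enzymes, Nt5e was higher in Nampt++ than in normal samples and passed the thresholds, which 0.686% of the 11219 genes tested did in this comparison (0.330% higher). It lay at 11.2, 3.00, 4.55 and 3.07 FPKM in Nampt++, at 2.79, 2.62, 2.21 and 4.25 in Nampt+ and at 2.32, 1.73 and 2.68 in normal samples. Rat 1 was far above the other Nampt++ samples, and all 4 Nampt++ samples were above the 3 normal ones. The ratio of means was 2.43 and the log2 fold change 1.25 (SE 0.46), with an adjusted p of 0.9999 in edgeR and an exact permutation p of 0.114. The call was lost without Nampt++ replicate 1 (log2 fold change 0.69) and without any one of the normal samples (1.21 to 1.28). Between Nampt+ and Nampt++ the ratios within rats were 0.250, 0.872, 0.485 and 1.39, and the log2 fold change of -0.73 (SE 0.45) did not pass (exact permutation p = 0.171) and was -0.18 without Nampt++ replicate 1. For Nampt+ against normal it was 0.51 (SE 0.32).

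Entpd1, which works before Nt5e, had opposite differences in different rats. It was at 58.1, 7.97, 27.7 and 12.7 FPKM in Nampt++, at 8.87, 21.4, 17.1 and 31.5 in Nampt+ and at 14.9, 22.7 and 7.10 in normal samples. From Nampt++ to Nampt+, the ratios were 0.153 and 0.615 in rats 1 and 3 but 2.69 and 2.47 in rats 2 and 4. The log2 fold changes were -0.23 (SE 0.63) for Nampt+ against Nampt++, 0.63 (SE 0.74) for Nampt++ against normal and 0.38 (SE 0.64) for Nampt+ against normal. None passed, and the exact permutation p was 0.829, 0.514 and 0.486. Without Nampt++ replicate 1 the first 2 were 0.42 and -0.031, and without normal replicate 2 the last 2 were 1.31 and 1.08.

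Adora2a was the main adenosine receptor transcript in these cells. Its values were 20.1, 25.2, 31.3 and 51.3 FPKM in Nampt++, 21.6, 14.4, 29.2 and 22.4 in Nampt+, and 15.1, 33.0 and 21.4 in normal samples. The groups overlapped, though the 51.3 of rat 4 was above every other sample. It was lower at Nampt+ in 3 of 4 rats, with ratios of 1.07, 0.574, 0.935 and 0.437, a log2 fold change of -0.46 (SE 0.25) and an exact permutation p of 0.257. The log2 fold change was 0.32 (SE 0.43) for Nampt++ and -0.16 (SE 0.36) for Nampt+ against normal. Leaving out one sample moved the 3 values to between -0.65 and -0.27, 0.062 and 0.95, and -0.42 and 0.47, the highest of the last 2 without normal replicate 2, and none passed the thresholds. Adora2b had group means of 0.865 to 1.19 FPKM, while Adora1 and Adora3 did not exceed 0.110 and 0.0643 FPKM in any sample.

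Counted together, 1 of the 9 genes passed in Nampt+ against Nampt++ (Gda, lower), 1 in Nampt++ against normal (Nt5e, higher), and none in Nampt+ against normal. Of all genes tested, 0.642% of 11219, 0.686% of 11219 and 0.497% of 11269 passed. The count in Nampt+ against Nampt++ follows from the choice of Gda. Groups without overlap were found for none of the 9 in Nampt+ against Nampt++ (0.410% of all genes tested) and for none in Nampt+ against normal (0.444%). In Nampt++ against normal they were found for Pnp and Nt5e (1.10% of all genes tested, 0.633% with Nampt++ higher). No gene of the table had an adjusted p under 0.05 in edgeR in any comparison, while 256, 176 and 98 genes (2.28, 1.57 and 0.870%) had an unadjusted p under 0.05 and DESeq2 gave 5, 5 and 4 with an adjusted p under 0.05. The comparisons share samples, with each group in 2 of them. Within-rat sign-flip permutation cannot give less than 0.125 with 4 rats, and exact values for the genes other than Gda ran from 0.375 to 1. For these 8 genes 24 exact permutation tests between groups were made, the smallest p was 0.0857, and the adjusted p in edgeR was at least 0.9996 for each.

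Markers of leukocyte types also varied between samples of one group. The 12 neutrophil genes on the list summed to 3013 to 40496 FPKM in Nampt++, 3826 to 15741 in Nampt+ and 2169 to 14374 in normal samples, and none of the 10 tested passed in any comparison. Their mean log2(FPKM + 1) in rats 1 to 4 was 7.09, 4.59, 6.18 and 6.03 at Nampt++ and 4.86, 6.33, 5.23 and 6.27 at Nampt+. In normal samples it was 5.46, 6.39 and 4.23. Among Nampt++ samples, all of the 9 genes except Adora2a, and so Gda as well, were lowest in rat 2, where this mean was lowest. Xdh, Pnp, Hprt1, Nt5e and Entpd1 were highest there in rat 1, where it was highest. Normal replicate 2, the normal sample with the most Gda and Ampd3, also had the most neutrophil RNA. Other values did not follow the neutrophil list. Among Nampt+ samples rat 2 had its highest mean (6.33) but the lowest Pnp (50.8 FPKM). Normal replicate 2 had the lowest Nt5e (1.73 FPKM). Gda at Nampt++ was highest in rat 4, not in rat 1. The mean log2(FPKM + 1) of the monocyte list at Nampt++ was lowest in rat 1 (4.77) and highest in rat 4 (6.27). Its summed FPKM at Nampt++ was instead lowest in rat 2 (5773) and highest in rat 3 (12840.5). The erythroid list, with 9 of 13 genes found, summed to 94089.5 to 513449 FPKM in Nampt++, 197633 to 585203 in Nampt+ and 218002 to 423053 in normal samples, none of its genes at 0. The part of cell makeup in the members' values was not tested.

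**Figure D3:**
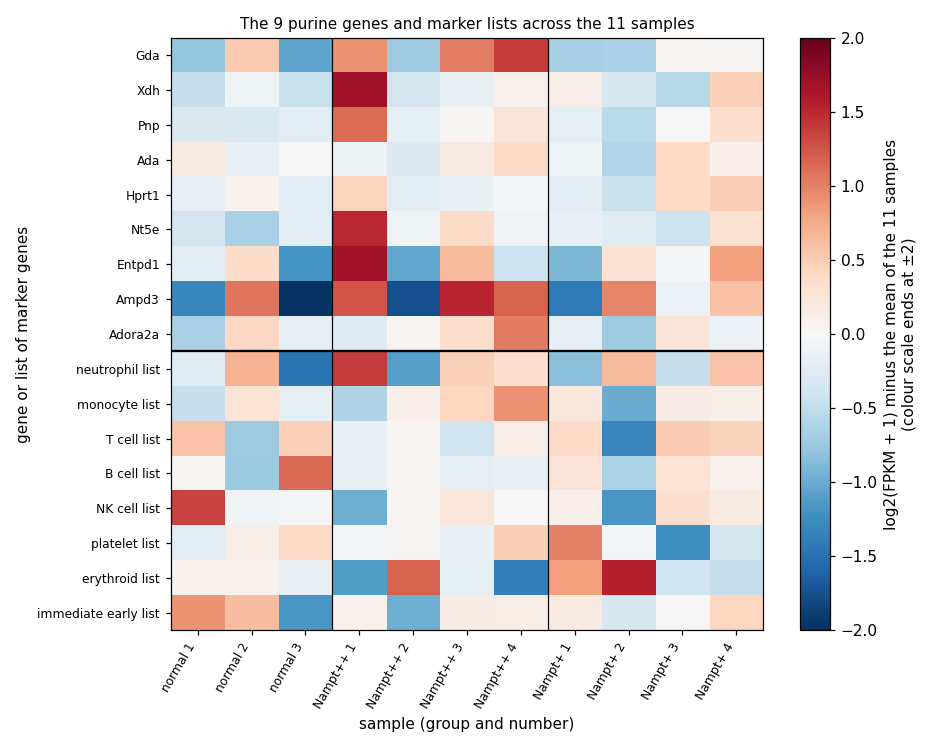
Log2(FPKM + 1) minus the mean of the 11 samples (colour; scale ends at 2 in either direction) for the 9 genes above the line and the mean over each marker list below it, by sample. The Nampt++ sample of rat 1 is red for Xdh, Pnp, Nt5e, Entpd1 and the neutrophil list, and that of rat 2 is blue for Ampd3, Entpd1 and the neutrophil list.

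On a list of the wider pathway, no gene other than Gda and Nt5e passed. The list ran from de novo synthesis to nucleotide receptors, with 75 of its 79 genes in the table. Of the 57 with enough reads, 1 passed in Nampt+ against Nampt++ (Gda, chosen on it) and 1 in Nampt++ against normal (Nt5e). In Nampt+ against normal 0 of 55 passed. Of all genes tested, 0.642, 0.686 and 0.497% passed in these comparisons. Without the 9 genes, 48, 48 and 46 were tested and none passed. The median log2 fold change of the list was -0.05, 0.04 and -0.04 in these comparisons, beside 0.00 over all genes tested in each.

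By step, the 8 genes of de novo purine synthesis had fitted log2 fold changes from -0.48 to -0.02 in Nampt++ against normal. In Nampt+ against normal they ran from -0.25 to -0.03, and none passed. Both comparisons use the same normal samples, and of all genes tested 49.6 and 50.7% were below 0. In Nampt+ against Nampt++ the de novo genes ran from -0.03 to 0.36, with a median of 0.15. The 8 tested genes of deamination and breakdown to uric acid had a median of -0.19 in Nampt+ against Nampt++ and 0.44 in Nampt++ against normal, and 5 of these 8 are Gda, Xdh, Pnp, Ada and Ampd3. The 8 tested P2 receptors had medians of -0.62 and 0.42, and the 2 tested adenosine receptors -0.41 and 0.35. Aprt, which salvages adenine, was the most abundant of the list at 187 FPKM, followed by the nucleoside diphosphate kinase Nme2 at 127 and Impdh2, which commits IMP to guanine nucleotides, at 116. Log2 fold changes of Aprt were -0.17 and 0.28 in Nampt+ against Nampt++ and Nampt++ against normal, and those of Nme2 -0.11 and 0.02. Impdh2 had 0.06 and -0.13. Uox, which carries uric acid further to allantoin in rat liver, did not exceed 0.0930 FPKM.

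**Figure D4:**
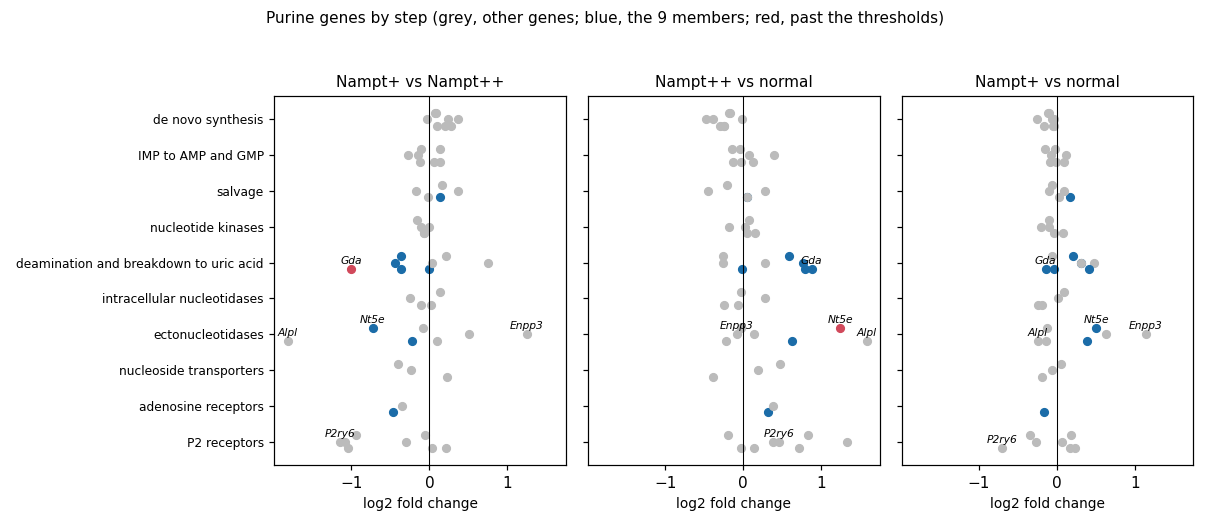
Log2 fold changes (horizontal axis) of the listed purine genes with a mean of at least 1 FPKM, by step of the pathway, in the 3 comparisons, with the 9 genes in blue, genes past the thresholds in red and other genes in grey. Alpl at -1.82 and 1.58 lies farthest from 0 in the first and second panels and did not pass, and the de novo genes lie between -0.48 and 0.36.

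Chosen after their values were seen, Alpl, a phosphatase that can also release adenosine from AMP, had -1.82 (SE 1.17) in Nampt+ against Nampt++ and 1.58 (SE 1.39) in Nampt++ against normal, and Enpp3, a nucleotide pyrophosphatase of basophils, had 1.25 (SE 0.70) in the first. Neither passed. Alpl ran from 0.426 to 29.6 FPKM in Nampt++, 0.955 to 3.74 in Nampt+ and 0.649 to 5.32 in normal samples. Enpp3 ran from 2.05 to 5.99 FPKM in Nampt++ and 1.45 to 24.6 in Nampt+. Of the basophil and mast cell markers, 3 of 5 tested (Ms4a2, Mcpt8l2 and Mcpt8l3) passed as higher in Nampt+ than in Nampt++ samples, as 0.312% of all genes tested did, and their part in the value of Enpp3 was not tested. Among 133 rows annotated to purine metabolism in KEGG, 82 were tested in Nampt+ against Nampt++ and 2 passed, Gda and LOC100364062, which is annotated as like M2 pyruvate kinase and was also named after its values were seen. The mean of LOC100364062 was 37.3 ± 15.8 FPKM in Nampt++ and 18.4 ± 1.99 in Nampt+ (SD, n = 4 each). It was lower at Nampt+ in rats 1, 3 and 4 but not in rat 2, with 15.46 FPKM at Nampt++ and 15.83 at Nampt+. Nt5e alone passed of the 82 tested in Nampt++ against normal, and none of 81 in Nampt+ against normal. Of all genes tested, 0.642, 0.686 and 0.497% passed in these comparisons, and Gda was chosen on the first.

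The 5 genes most like Gda across the 11 samples were Nfil3, Slc25a37, Rnf149, Snx10 and Tnfrsf1b, by Pearson's r of log2(FPKM + 1) among 4930 genes with a mean of at least 10 FPKM. The r was 0.977 for Nfil3, 0.971 for Slc25a37, 0.965 for Rnf149, 0.961 for Snx10 and 0.960 for Tnfrsf1b, and Spearman's rho was 0.927 to 0.991. Leaving out the 2 samples farthest from the median of Gda left r at 0.932 to 0.963. Of the other 8 genes, Ampd3 was nearest with an r of 0.833 (rho 0.909, rank 233 of 4929) and Adora2a next with 0.711. Pnp had 0.605, Entpd1 0.591, Xdh 0.487, Hprt1 0.471, Ada 0.444 and Nt5e 0.434. The CIA samples come in pairs from 4 rats, and haemoglobin content and neutrophil markers differ between samples, so these values are a description with no test.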

How the data were processed

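RNA of WBCs was sequenced from poly(A) libraries in paired-end reads. Per the labels' processing notes the authors used cutadapt 1.9, HISAT2 2.0.4 and StringTie 1.3.4, and the methods add Gffcompare 0.9.8. The genome build and the program that counted reads are not given in the sources used here. The authors deposited whole-number counts per gene without normalization and FPKM values. An FPKM of 0.0001 stood for 0 and was read as 0.

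Counts were compared a pair of groups at a time with edgeR 4.0.16 (TMM, quasi-likelihood test, Benjamini-Hochberg adjustment over every gene whose mean FPKM was 1 or more), after tests on simulated data. For single genes, log2(FPKM + 1) was permuted over samples (exact, two-sided, every arrangement counted). Spearman's rho was computed with scipy 1.17.1. Against normal samples that p measures the spread between rats. Between Nampt+ and Nampt++ it treats both samples of a rat as separate, so it mixes spread within and between rats. The sign-flip permutation keeps the pairs. Nampt++ and Nampt+ samples of one number are the same rat, and the correlations of their deviations from group means were -0.27, -0.24, 0.24 and 0.08. Promoters, motif shares and marker lists were described only. The genes named were the 9 members, genes of the purine list past the thresholds, its 5 most abundant, and the 5 most like Gda. Other genes named were chosen outside this rule, as partners or copies of these (Adk, LOC103689983, Uox, other adenosine receptors) or after their values were seen (Alpl, Enpp3, LOC100364062 and the basophil markers).

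The members, lists and alternatives were chosen with earlier results of these data known. Alternatives were other scalings, filters, pseudocounts, limma 3.58.1, DESeq2 1.42.0, all groups in one fit, the rat as a replicate block, haemoglobin genes left out and each sample left out. The limma fit with the rat block and Hprt1 summed with its copy were added after seeing the data.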

Additional observations from a re-analysis of the deposited data

Results flagged for a closer look

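In the Nampt++ group, 2 samples stood apart from the other 3 by Dixon's ratio of the gap to the nearest sample over the range of the group, with a critical value of 0.829 for 4 samples. Ampd3 in rat 2 lay at 4.75 FPKM, below the 43.1 to 54.6 FPKM of the others, with a ratio of 0.897 on log2(FPKM + 1) but 0.768 on FPKM. Xdh in rat 1 lay at 189 FPKM, above the 45.4 to 62.3 FPKM of the others, with a ratio of 0.883 on FPKM but 0.780 on log2(FPKM + 1). Each passed on one scale alone. The 9 genes gave 18 groups of 4 on either scale, and chance gives about 1 in 20. Rat 2 also had the lowest mean of the neutrophil list among Nampt++ samples (4.59) and the most haemoglobin (37.3% of counts), and rat 1 the highest mean (7.09) and the least haemoglobin (6.84%). Their part in these values was not tested.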

How the results depend on the processing

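Of 456 alternative values of the 9 genes' log2 fold changes, 409 kept their direction and side of the thresholds, 11 lost a call, 3 gained one and 33 changed sign. With 3 or 4 rats in a group, the number of rats limits the precision. Every member had at least 482 reads in each sample, and the part of depth was not tested. The cause of a change below was not tested. A stricter filter leaves fewer genes to test. Leaving out a sample leaves fewer samples, but not always fewer genes, with 11356 tested without Nampt+ replicate 2 against 11219 with it.

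The count of the 9 genes past the thresholds in Nampt+ against Nampt++ was 1, and 0 with upper quartile scaling (Gda -0.97), with haemoglobin genes left out (-1.03), with the 3 groups fitted at once (-1.01) and with the rat as a replicate block (-0.93), where 56 genes passed in all. In the first 2 the ratio of scaled means rose to 0.514 and 0.516. The block changed no other call of the 9 genes. Limma with the rat as a replicate block kept Gda (-0.95) and called 114 genes, against 80 in limma without the block and 72 in edgeR. Leaving out one sample gave 0 to 1 of the 9 and 58 to 165 genes, the most without the Nampt+ (165) or Nampt++ sample of rat 2 (163). In Nampt++ against normal the count was 1, and 0 at a mean FPKM of at least 10, where Nt5e was not tested. Leaving out one sample gave 0 to 2 of the 9 and 53 to 462 genes, with 462 without normal replicate 2, 184 without Nampt++ replicate 2, 142 without normal replicate 3 and 53 without normal replicate 1. In Nampt+ against normal it gave 0 to 1 of the 9 and 49 to 136 genes, with 136 and 112 without normal replicates 2 and 3 and 98 without Nampt+ replicate 1.

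Without a filter 295, 306 and 261 genes passed in the 3 comparisons, and at a mean FPKM of at least 10 19, 25 and 14. DESeq2 called 121 in Nampt++ against normal. Of genes past the thresholds 48.6% were higher in Nampt+ against Nampt++ and 58.4% under upper quartile scaling. In Nampt++ against normal 48.1% were higher, 36.9% under upper quartile scaling and 38.0% with haemoglobin genes left out.

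Signs turned mostly where the value was near 0. Ada in Nampt+ against Nampt++ was 0.022 with upper quartile scaling and 0.040 at a mean FPKM of at least 10, and 0.0325 and 0.0334 in Nampt++ against normal in limma with pseudocounts of 1 and 0.1. Hprt1 in Nampt++ against normal was -0.0043 at a mean FPKM of at least 10. Gda in Nampt+ against normal was 0.12 in limma with a pseudocount of 1 and 0.14 with 0.1. When one sample was left out, the log2 fold changes in Nampt+ against Nampt++ ranged from -0.64 to 0.21 for Xdh, -0.086 to 0.057 for Ada and -0.62 to 0.42 for Entpd1. In Nampt++ against normal they ranged from -0.17 to 0.086 for Ada, -0.16 to 0.37 for Hprt1 and -0.031 to 1.31 for Entpd1. In Nampt+ against normal they ranged from -0.53 to 0.86 for Gda, -0.19 to 0.068 for Ada, -0.038 to 0.49 for Hprt1, -0.032 to 1.08 for Entpd1, -0.48 to 2.44 for Ampd3 and -0.42 to 0.47 for Adora2a. The log2 Ada to Adk ratio ranged from -0.30 to 0.10, -0.074 to 0.40 and -0.19 to 0.31.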
